A study of Drosophila melanogaster with 8 samples.

Results

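Oxidative phosphorylation was followed through 106 of the 13942 genes with deposited values. They were the 13 protein-coding genes of the mitochondrial genome and 93 nuclear genes, chosen by FlyBase symbols that name subunits of the respiratory chain and ATP synthase (symbols starting with ND-, SdhA to SdhD, UQCR, RFeSP, Cyt-c, COX or ATPsyn, together with blw). Of the nuclear genes, 26 were duplicate copies, with a symbol that ends in L (with or without a digit, ND-MNLL excepted) or the name Cyt-c-d. They are called paralogs here, and the other 67 are called nuclear subunits. Members were placed in complexes by symbol alone. All members but the paralog ND-20L, with 10 reads in all, had at least 12 reads and were tested.

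RNA was sequenced from Malpighian tubules, the excretory organ, of adult Drosophila melanogaster females and males from an African (Zimbabwe) and a European (the Netherlands) population. Each of the 4 combinations of sex and population had 2 biological replicates, which made 8 libraries. The flies came from isofemale lines (each founded by a single wild female), the labels name no mutation or treatment, and each library pooled tubules from several lines, so that variation among lines cannot be seen. Rearing was at 22° with a day of 14 hr, and the labels give an age of 2 to 4 days and ice as anesthetic, whereas the study's methods give older flies and carbon dioxide.

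Oxidative phosphorylation takes place at the inner mitochondrial membrane. Complexes I and II pass electrons from NADH and succinate to ubiquinone, complex III passes them to cytochrome c and complex IV to oxygen, and ATP synthase (complex V) uses the resulting proton gradient to make ATP. Complexes I, III, IV and V are built from proteins of both genomes, whereas complex II is wholly nuclear. Tubule principal cells are rich in mitochondria and spend much ATP on a proton pump in the apical membrane.

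The libraries held 19528634 to 27099855 reads on annotated genes. Transcript levels are given as deposited RPKM (reads scaled by the length of the longest transcript and by the library total), and differences as log2 values after scaling by TMM factors, which correct for library composition and were 0.927 to 0.997 in African and 1.02 to 1.04 in European libraries. A gene is called where its limma p-value, adjusted over the 12580 genes tested, is below 5%. Markers of tubule cells differed between the groups. The summed TMM-scaled RPKM of 13 principal cell genes was 9294 to 12386 in African and 7815 to 8865 in European libraries, and 7 of them were called lower in Europe and 0 higher. For 7 stellate cell genes the sums were 474 to 554 and 380 to 439, with 3 called lower in Europe. Of all genes tested, 5.39% were called lower in Europe. Midgut enzyme genes (21 genes, 0 called for sex or population) summed to 3940 and 1288 in African males 1 and 2, and to 65.3 to 210 in the other libraries. For the interaction of sex and population, 2 of them were called (Amy-d and Amy-p, limma adjusted p = 0.032 each), against 0.0556% of all genes. In such bulk RNA, fewer cells of a type and less RNA per cell cannot be told apart.

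The mitochondrial genome took a larger share of the reads in African than in European tubules, whereas the nuclear members did not. Mitochondrial genes held 5.99% and 4.97% of all reads in females and 4.87% and 4.77% in males from Africa, against 4.52% and 4.23% in females and 4.12% and 4.12% in males from Europe. The values are those of replicates 1 and 2, in this order throughout. Every African library lay above every European one. The mean was 5.15% ± 0.567 in Africa and 4.25% ± 0.189 in Europe (SD, n = 4 each), a difference of -0.907 percentage points for Europe minus Africa. It was -1.11 points within females and -0.703 points within males.

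The 93 nuclear members together held 2.26% and 2.21% of reads in females and 2.09% and 1.98% in males from Africa, against 2.35% and 2.37% in females and 2.24% and 2.24% in males from Europe. These shares overlapped between the populations, with means of 2.13% ± 0.126 in Africa and 2.30% ± 0.0703 in Europe (SD, n = 4 each). Without African male 2, the difference of 0.164 points between the populations became 0.112. The ratio of mitochondrial reads to reads of nuclear members, which needs no scaling between libraries, was 2.65 and 2.25 in females and 2.33 and 2.41 in males from Africa, against 1.93 and 1.78 in females and 1.84 and 1.84 in males from Europe. The populations did not overlap in it. No p-value is given for shares and ratios, because they are sums over chosen genes.

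**Figure D1:**
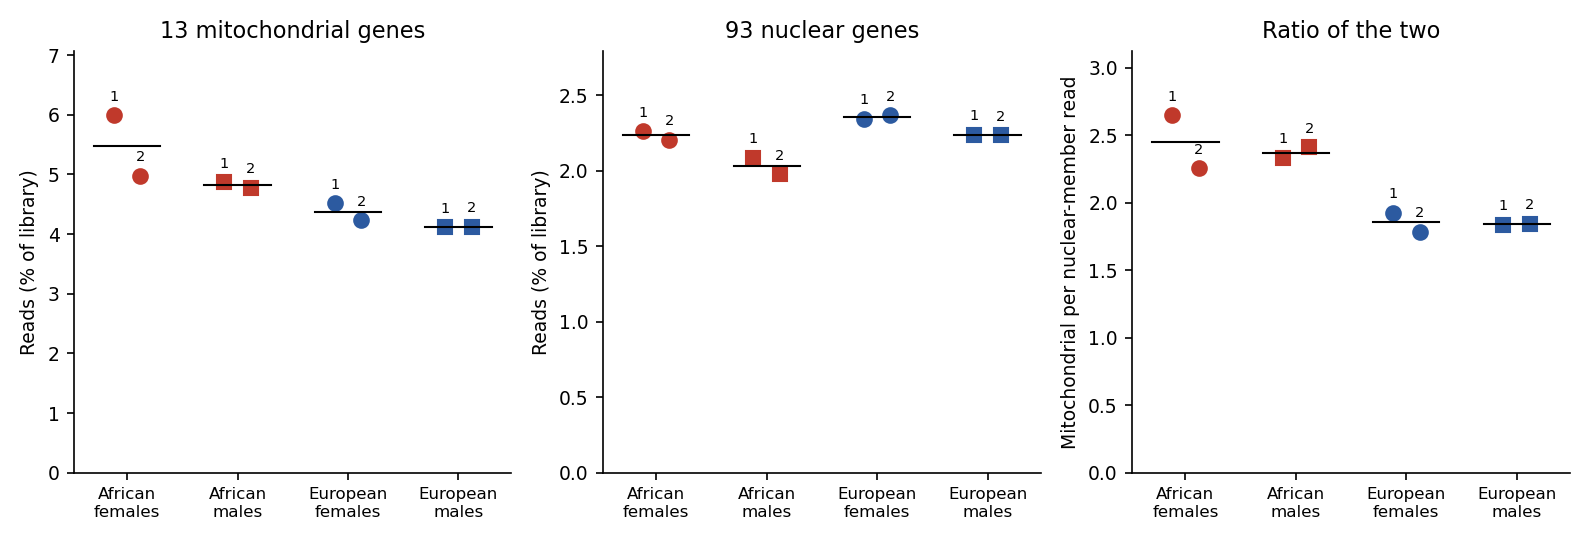
Share of each library's reads (%) on the 13 mitochondrial genes (left) and the 93 nuclear members (middle), and mitochondrial reads per read of nuclear members (right). Points are libraries, numbered by replicate, and lines are means of 2; the African mitochondrial shares (4.77% to 5.99%) lie above the European ones (4.12% to 4.52%), while the nuclear shares overlap.

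Relative to the nuclear subunits, the mitochondrial level was higher in Africa in each complex with subunits from both genomes. For complex I, the median RPKM of its 7 mitochondrial genes was 6.99 to 8.17 times the median of its 34 nuclear subunits in African libraries and 4.51 to 5.05 times in European ones. In every library this mitochondrial median was the level of mt:ND5, the mitochondrial gene with the largest log2 difference between the populations. For complex III, with mt:Cyt-b as its only mitochondrial gene, the ratio was 28.0 to 33.5 in Africa and 22.4 to 23.98 in Europe. For complex IV it was 18.4 to 21.7 and 14.7 to 16.5, and for complex V it was 6.01 to 7.65 and 4.31 to 4.94. The populations did not overlap in any of these 4 ratios. As deposited, without TMM scaling, the nuclear medians of complexes I and V also differed. That of complex I was 127 to 140 RPKM in Africa and 146 to 155 in Europe. That of complex V was 408 to 467 RPKM in Africa and 481 to 502 in Europe, while those of complexes III and IV overlapped. After TMM scaling, 5 of the 34 complex I subunits and 0 of the 12 complex V subunits were called higher in Europe. Median log2 differences were then 0.08 over the complex I and 0.04 over the complex V subunits.

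Of the 13 mitochondrial genes, 10 were called lower in Europe and 0 higher, against 5.39% of all genes tested called lower in Europe. The median log2 difference (Europe over Africa) was -0.36 over the 13 genes and 0.01 over all genes. All 13 differences were below 0, also under each of the 16 alternative settings. In 11 of the 13, all 4 African libraries lay above all 4 European ones, a pattern found in 7.74% of all genes.

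Complex I, the NADH dehydrogenase, had the gene with the largest log2 difference. The level of mt:ND5, a subunit of its proton-pumping membrane arm, was 1143 and 949.8 RPKM in females and 1041 and 899 in males from Africa, against 716 and 785 in females and 694 and 657 in males from Europe. No European library reached the lowest African one, and the log2 difference was -0.58 ± 0.07 (SE, limma adjusted p = 0.0024), called under all 16 alternatives. Also called were mt:ND1 (-0.51, adjusted p = 0.012), mt:ND4L (-0.45, adjusted p = 0.0099), mt:ND4 (-0.42, adjusted p = 0.013) and mt:ND3 (-0.36, adjusted p = 0.026). For mt:ND2 (-0.30, adjusted p = 0.131) and mt:ND6 (-0.29, adjusted p = 0.258), whose populations overlapped, the test was not passed.

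In complex III, mt:Cyt-b, the cytochrome b that carries the ubiquinol sites, was at 8851 and 7258 RPKM in females and 7211 and 7163 in males from Africa, against 6659 and 6405 in females and 6264 and 6164 in males from Europe. The African libraries were all above the European ones, and African female 1 stood well above the rest. The log2 difference was -0.34 ± 0.08 (SE, adjusted p = 0.044).

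Complex IV, cytochrome c oxidase, has its catalytic core encoded in the mitochondrion. The catalytic subunit mt:CoI was at 12108 and 10285 RPKM in females and 10070.1 and 9929.8 in males from Africa, against 9272 and 8529 in females and 8541 and 8506 in males from Europe. The groups did not overlap, and the log2 difference was -0.36 ± 0.09 (SE, adjusted p = 0.042), called under 5 of the 16 alternatives. For mt:CoII, which receives electrons from cytochrome c, it was -0.34 (adjusted p = 0.040). The log2 difference of mt:CoIII was -0.28 with a limma adjusted p = 0.128 (voom 0.0186, range over alternatives 0.0186 to 0.291), and its African libraries also lay above the European ones.

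In complex V, both mitochondrial genes encode parts of the membrane sector of ATP synthase. The proton channel subunit mt:ATPase6 was at 6828 and 5445 RPKM in females and 5135 and 5046 in males from Africa, against 4774 and 4184 in females and 3942 and 4071 in males from Europe. Its log2 difference was -0.48 ± 0.09 (SE, adjusted p = 0.016), and that of mt:ATPase8 was -0.51 ± 0.11 (SE, adjusted p = 0.027). The African libraries were higher for both genes without overlap.

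The 13 genes differed widely in level. The highest mean over the 8 libraries was that of mt:CoIII (14655 RPKM), followed by mt:CoI (9655 RPKM), mt:Cyt-b (6997 RPKM), mt:CoII (5358 RPKM) and mt:ATPase6 (4928 RPKM). The lowest were mt:ND6 (16.7 RPKM), mt:ND4L (43.4 RPKM), mt:ND2 (72.3 RPKM) and mt:ATPase8 (215 RPKM). In the BDGP6 annotation mt:ATPase8 overlaps mt:ATPase6, mt:ATPase6 overlaps mt:CoIII and mt:ND4L overlaps mt:ND4, and how reads in the overlaps were assigned is not given in the sources used here.

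The mitochondrial genes lie on both strands of their genome, which are transcribed separately. The 4 genes of the minus strand (mt:ND5, mt:ND4, mt:ND4L and mt:ND1) had a median log2 difference of -0.48 and were all called lower in Europe. The 9 genes of the plus strand had a median of -0.34, and 6 of them were called. Minus-strand genes held 11.2% and 10.5% of mitochondrial reads in females and 11.3% and 10.8% in males from Africa, against 9.89% and 10.4% in females and 9.83% and 9.66% in males from Europe. The lowest African value was close to the highest European one, without overlap. Among minus-strand genes, mt:ND5 held 3.25% to 3.69% in Africa and 2.73% to 3.20% in Europe, without overlap. For mt:ND1 it was 3.35% to 3.72% and 3.04% to 3.20%, also without overlap, whereas mt:ND4 and mt:ND4L overlapped. On the plus strand, mt:CoI was at 31.0% to 32.0% of mitochondrial reads and mt:Cyt-b at 16.6% to 17.3%. The share of mt:CoIII was 23.6% to 24.7% in Africa and 24.9% to 25.6% in Europe. That of mt:ATPase6 was 7.12% to 7.69% in Africa and 6.47% to 7.13% in Europe, with slight overlap.

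**Figure D2:**
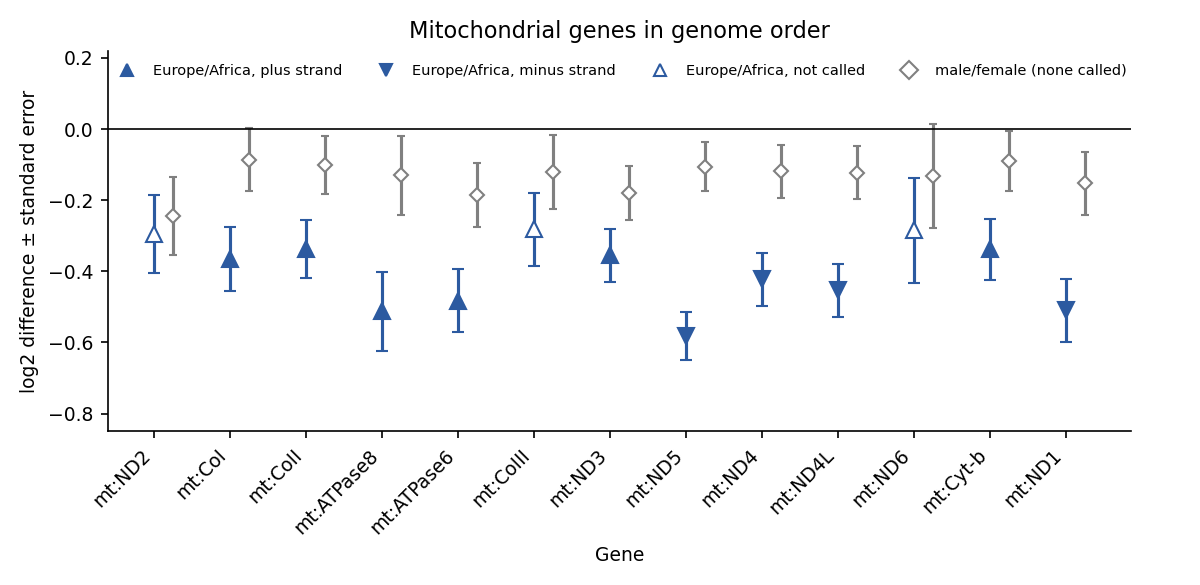
The log2 differences of the 13 mitochondrial genes, Europe over Africa (triangles, filled where called, pointing up for the plus and down for the minus strand) and male over female (gray diamonds, 0 called), with standard errors over 8 libraries. Genes are in their order along the mitochondrial genome; all differences are below 0, from -0.58 to -0.28 for population.

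The number of calls depended on the libraries in the fit. It was 6 without African male 1, 5 without African male 2, European female 1, European male 1 or European male 2, and 4 without European female 2, with the median log2 difference staying between -0.45 and -0.32 when any 1 library was left out. Without both African males, which held most midgut RNA, the comparison rests on 4 female libraries, the median was -0.39 and only mt:ND5 was called. The principal and stellate cell markers given above were also lower in Europe, and their part in the mitochondrial difference was not tested.

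The nuclear subunits that passed the test were higher in Europe. Of the 67, 7 were called higher in Europe and 0 lower, against 6.53% of all genes called higher in Europe. Of their log2 differences 52 were above 0, with a median of 0.05. In 13 subunits all European libraries lay above all African ones, against 7.89% of all genes. The scaling mattered: with library size alone, 24 nuclear subunits were called higher in Europe, 64 differences were above 0 and 5 mitochondrial genes were called lower, so that all members split into 25 higher and 5 lower in place of 8 and 10 (all genes: 1523 higher and 447 lower in place of 821 and 678). Of 20 muscle genes 16 also had a log2 difference above 0 (median 0.23), with 1 called higher in Europe (Act87E) and 0 lower. Their summed TMM-scaled RPKM was 281 to 418 in Africa and 339 to 468 in Europe, with overlap, and the part of muscle RNA in the nuclear difference was not tested.

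Complex II, succinate dehydrogenase, joins the tricarboxylic acid cycle to the respiratory chain, and both of its membrane anchor subunits were called. SdhC was at 147 and 147 RPKM in females and 143 and 129 in males from Africa, against 176 and 183 in females and 177 and 176 in males from Europe. The European libraries were all higher, with a log2 difference of 0.25 ± 0.03 (SE, limma adjusted p = 0.0041). SdhD was at 115 and 119 RPKM in females and 115 and 103 in males from Africa, against 143 and 144 in females and 136 and 135 in males from Europe. Its European libraries were likewise all higher, with a log2 difference of 0.22 ± 0.03 (SE, adjusted p = 0.0070). The catalytic subunits had smaller differences that did not pass, 0.07 for the flavoprotein SdhA (adjusted p = 0.234) and 0.07 for the iron-sulfur protein SdhB (adjusted p = 0.330).

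In complex I, 5 of 34 nuclear subunits were called higher in Europe, all of them accessory subunits outside the catalytic core. ND-B12 was at 195 and 199 RPKM in females and 203 and 186 in males from Africa, against 246 and 246 in females and 245 and 242 in males from Europe. The gap between the populations exceeded the spread within each of them, and the log2 difference was 0.24 ± 0.03 (SE, adjusted p = 0.0034), called under all 16 alternatives. ND-15 differed by 0.22 (adjusted p = 0.0074), ND-B14.7 by 0.16 (adjusted p = 0.015), ND-ASHI by 0.15 (adjusted p = 0.033) and ND-13B by 0.14 (adjusted p = 0.047). With the replicate number as a block, ND-13B was no longer called (adjusted p = 0.061, range over alternatives 0.013 to 0.148) and ND-B18 was (0.14, adjusted p = 0.044 in place of 0.074, range 0.0036 to 0.176).

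The nuclear core subunits of complex I, which form its electron-transferring arm, had log2 differences of 0.02 (ND-75), 0.02 (ND-51), 0.02 (ND-49), -0.06 (ND-30), 0.05 (ND-24), 0.10 (ND-23) and 0.06 (ND-20), and none was called. In complexes III (8 subunits), IV (8) and V (12), 0 subunits were called for population. Of the complex IV subunits 3 of 8 had a difference above 0, with a median of -0.02, and the African libraries of COX5A all lay above the European ones (log2 difference -0.06, adjusted p = 0.343). Cytochrome c itself, Cyt-c-p, differed by -0.03 (adjusted p = 0.675).

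**Figure D3:**
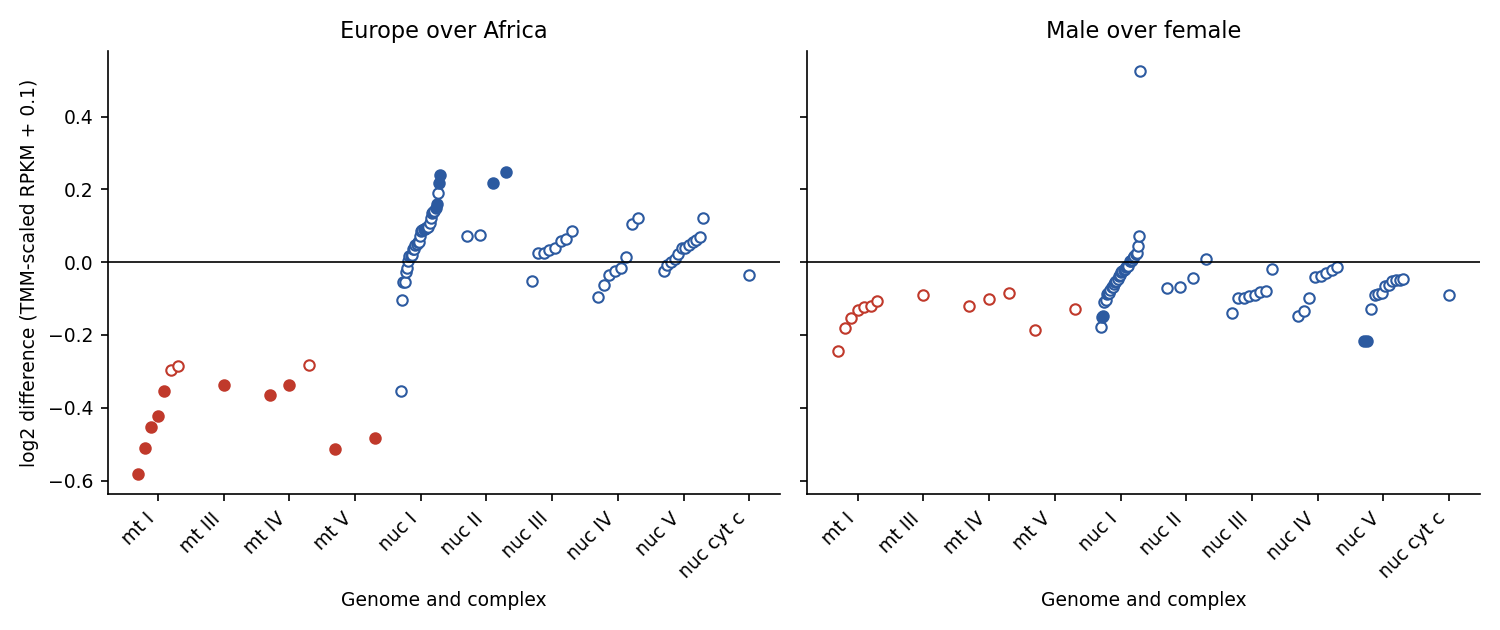
The log2 difference of each mitochondrial gene (red) and nuclear subunit (blue) by complex, Europe over Africa (left) and male over female (right), filled where called. Between populations the mitochondrial genes lie at -0.58 to -0.28 and most nuclear subunits above 0; the points farthest from the other nuclear subunits are ND-B8, at -0.35 and 0.53.

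The nuclear subunits of complex I held 0.450% to 0.497% of all reads in African and 0.513% to 0.538% in European libraries, and those of complex II 0.0927% to 0.101% and 0.110% to 0.115%, without overlap in either, whereas the shares of complexes III, IV and V overlapped.

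The count of nuclear subunits higher in Europe was 4 without European female 2 or European male 2 (all members: 5 without European male 2), and 1 (ND-B12) without both African males, when 45 of the 67 differences were above 0. The X chromosome held 12 of the subunits, 1 of them called (ND-ASHI), and the autosomal arms and heterochromatin 55, with 6 called. Median log2 differences were 0.06 and 0.05, respectively.

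The mitochondrial genes are transcribed, and their messages translated, by machinery that is encoded in the nucleus. Among 72 mitochondrial ribosomal proteins, 11 (15.3%) were called higher in Europe and 0 lower, with a median log2 difference of 0.12, against 6.53% of all genes called higher. The largest of the called differences was that of mRpL1 (0.49, adjusted p = 0.014), followed by mRpL55 (0.47, adjusted p = 0.0012). A list of 19 genes covered mitochondrial DNA replication, transcription and RNA stability, together with the regulators of nuclear genes srl, ewg and Ets97D. Of these 19, only mTerf5, of a family of transcription termination factors, was called (0.27, adjusted p = 0.043). Of 16 tricarboxylic acid cycle genes 0 were called, with 10 differences below 0, and 1 of 8 carrier, channel and import genes was (Tom40, an import pore, 0.16, adjusted p = 0.038). Among 4 further subunits with symbols outside the rule (ox of complex III, cype and levy of complex IV, sun of complex V), 0 were called.

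Fewer mitochondrial genes and nuclear subunits were called between the sexes than between the populations. Of the mitochondrial genes 0 were called for sex by limma, 1 (mt:ND3) had an unadjusted p under 0.05 and 0 were called by voom, although all 13 log2 differences (male over female) were below 0 with a median of -0.12. The signs were the same under each alternative, but the size rested on single libraries, with a median of -0.07 without African female 1 and -0.20 without African female 2. The mitochondrial share was 4.93% ± 0.774 in females and 4.47% ± 0.408 in males (SD, n = 4 each), with overlap, and the difference of -0.459 percentage points (male minus female) became -0.104 without African female 1 and -0.692 without European female 2. Without African female 2, 1 mitochondrial gene was called lower in males.

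Among nuclear subunits, 3 (4.48%) were called lower in males and 0 higher, a share close to the 4.12% of all genes called higher in females. Of the 67 log2 differences 56 were below 0, with a median of -0.06, and all differences in complexes III, IV and V were. In 8 subunits, 7 of them in complex V, all female libraries lay above all male ones, against 5.91% of all genes. With library size alone 7 subunits were called lower in males, so that the members split into 6 higher and 7 lower in place of 6 and 3. All genes then split into 936 higher and 694 lower in males in place of 958 and 518.

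The called subunits of ATP synthase belong to its soluble catalytic sector. ATPsynbeta, the catalytic subunit, was at 1446 and 1326 RPKM in females and 1162 and 1119 in males from Africa, against 1451 and 1359 in females and 1199 and 1247 in males from Europe. Females were higher throughout, with a log2 difference of -0.22 ± 0.05 (SE, adjusted p = 0.030), called under 8 of the 16 alternatives. ATPsyndelta, part of the rotating central stalk, was at 71.4 and 70.3 RPKM in females and 59.4 and 55.1 in males from Africa, against 73.1 and 74.4 in females and 65.3 and 65.3 in males from Europe. Again no male library reached a female one, and the log2 difference was -0.22 ± 0.03 (SE, adjusted p = 0.0091). The other catalytic-sector subunits blw (alpha, -0.09, adjusted p = 0.210) and ATPsyngamma (-0.09, adjusted p = 0.115) did not pass, although their female libraries also lay above the male ones. That pattern was found in 7 of the 12 complex V subunits and not only in those named here.

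**Figure D4:**
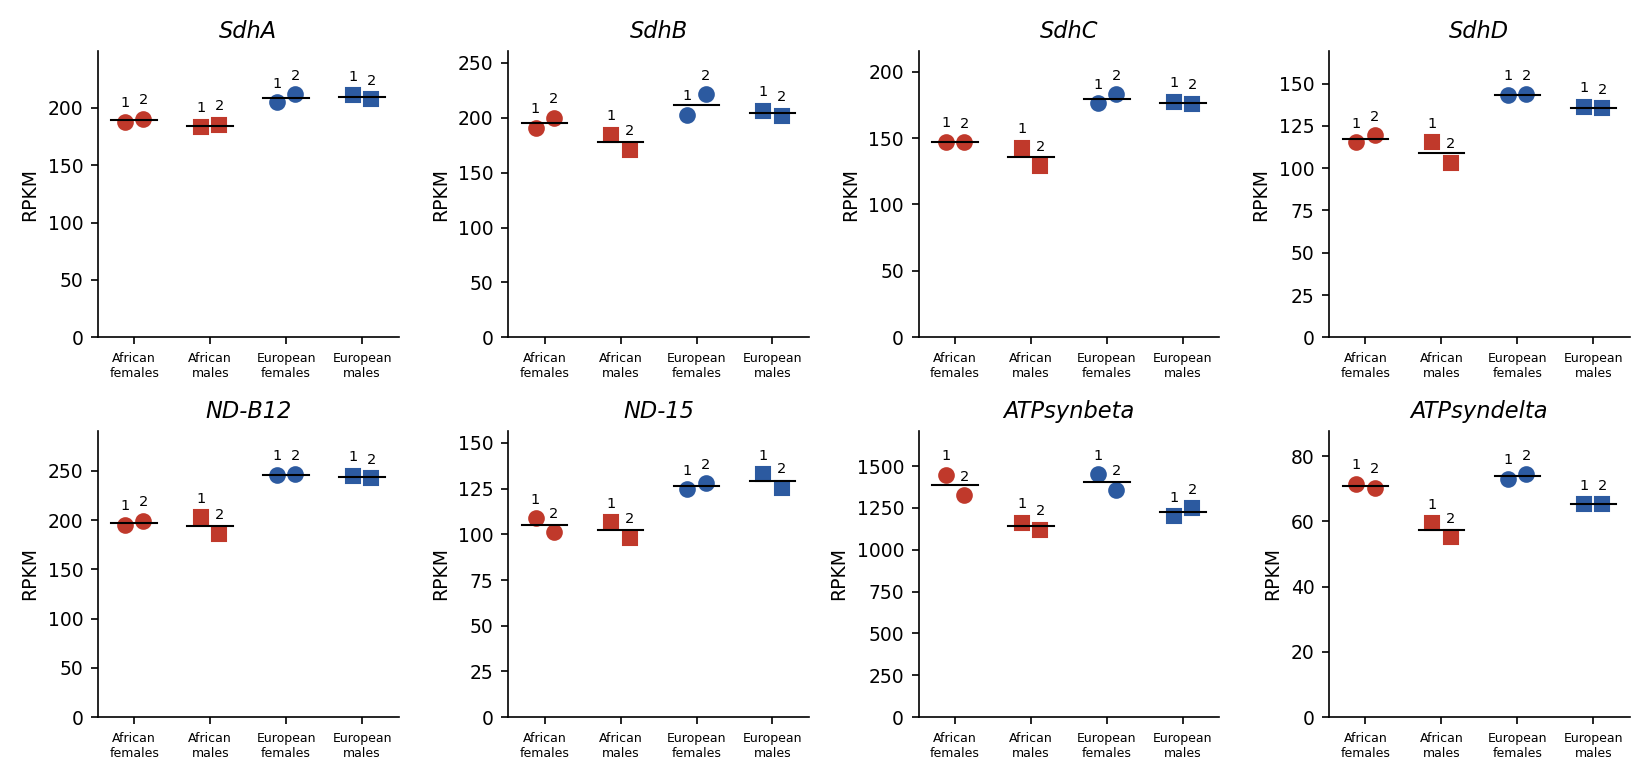
Deposited RPKM of the 4 complex II subunits, of the complex I subunits ND-B12 and ND-15, and of the ATP synthase subunits ATPsynbeta and ATPsyndelta. Points are libraries numbered by replicate (red Africa, blue Europe; circles females, squares males) and lines are means of 2; SdhC, SdhD, ND-B12 and ND-15 are higher in all European libraries, and both ATP synthase subunits in all female libraries.

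In complex I, ND-SGDH was called lower in males (-0.15, adjusted p = 0.044), but not with the replicate block (adjusted p = 0.059, range over alternatives 0.024 to 0.214). With the block, ND-B16.6 (-0.15, adjusted p = 0.047 in place of 0.050, range 0.023 to 0.194) and ND-MNLL (-0.18, adjusted p = 0.028 in place of 0.060, range 0.022 to 0.270) were called, which made 4 subunits. A single subunit was called without African female 2, African male 1, European female 1, European female 2, European male 1 or European male 2, and 0 without both African males. Related genes called lower in males were the ATP synthase subunit sun (-0.18, adjusted p = 0.013) and 11 of 72 mitochondrial ribosomal proteins (15.3%, with 2 called higher). The citrate synthase kdn (-0.27, adjusted p = 0.022) and the fumarase Fum1 (-0.24, adjusted p = 0.019) were also called lower. So were bsf, PolG2 and the regulator srl, of the list of 19 genes given above. Of all genes, 4.12% were called lower and 7.62% higher in males. Of the 13 principal cell genes 4 were also called lower in males, whereas of the 7 stellate cell genes 2 were called higher in males (ClC-a and Prip) and 0 lower. Fat body genes (10 genes) summed to 907 to 1693 TMM-scaled RPKM in females and 20.7 to 45.4 in males, and 6 were called lower in males and 2 higher. Ovary and egg genes (13 genes) summed to 7.86 to 76.2 over all libraries, with 6 called lower in males. The part of these cell types in the differences was not tested.

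Most nuclear subunits were expressed at high levels. The median of mean RPKM was 143 in complex I, 179 in complex II, 264 in complex III, 558 in complex IV and 467 in complex V, and 59 of the 67 subunits were above 100 RPKM. In complex I the highest was ND-MLRQ (558 RPKM), placed there by its ND- symbol alone, and the lowest ND-B8 (1.03 RPKM). The highest and lowest were SdhA (198 RPKM) and SdhD (126 RPKM) in complex II, and UQCR-C1 (431 RPKM) and UQCR-11 (142 RPKM) in complex III. They were COX7A (850.2 RPKM) and COX8 (343 RPKM) in complex IV, and ATPsynbeta (1289 RPKM) and ATPsyndelta (66.8 RPKM) in complex V, while Cyt-c-p was at 489.8 RPKM. The level of ND-B8 rests on 83 reads in all and was 0.241 to 2.00 RPKM over the libraries. RPKM was computed over the longest transcript, which for ATPsyndelta has 3817 bases.

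The paralogs were scarce, and those that differed by sex were higher in males. In Drosophila, several duplicates of nuclear genes for oxidative phosphorylation are known for expression in the testis. Of the 26 paralogs, 21 had a mean below 1 RPKM, and together they had 9.37 to 12.5 RPM (reads scaled by the library total alone) in females and 10.4 to 21.9 in males, with overlap. Of the 25 tested, 6 were called higher in males and 0 lower, against 7.62% of all genes called higher in males, and 23 log2 differences were above 0 (median 0.64, also with ND-24L at its bound below). All called paralogs but Cyt-c-d had 0 to 11 reads in the females, so that they reached the minimum of 12 reads only with those of the males. For them the filter itself drew on the libraries where they are high. For 6 paralogs all male libraries lay above all female ones after scaling, against 7.96% of all genes.

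The paralog with most reads was Cyt-c-d, a cytochrome c that Drosophila spermatids need to become individual sperm. It was at 3.11 and 1.97 RPKM in females and 5.09 and 3.55 in males from Africa, against 3.18 and 3.79 in females and 6.94 and 7.08 in males from Europe. As deposited, African male 2 lay below European female 2, and after TMM scaling all males were above all females, with a log2 difference of 0.90 ± 0.16 (SE, adjusted p = 0.015). It is the only called paralog with more than 50 reads in a library.

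The other called paralogs rest on few reads. ND-24L, a copy of the complex I subunit ND-24, had 4, 2, 6 and 4 reads in the males and 0 in all females, which makes it at least 5.48-fold higher in males against a floor of 3 reads over the female group (adjusted p = 0.0074). For COX6CL there were 16 reads in males and 1 in females, a ratio of 16.4 (95% exact interval of counting 2.55 to 689, adjusted p = 0.015), and for COX6AL 21 and 2, a ratio of 10.8 (2.64 to 94.9, adjusted p = 0.030). These intervals cover counting error only. SdhCL had 32 and 8 reads (log2 difference 1.28, adjusted p = 0.028) and Cyt-c1L 30 and 11 (0.95, adjusted p = 0.034, with the replicate block adjusted p = 0.051, range over alternatives 0.032 to 0.135).

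**Figure D5:**
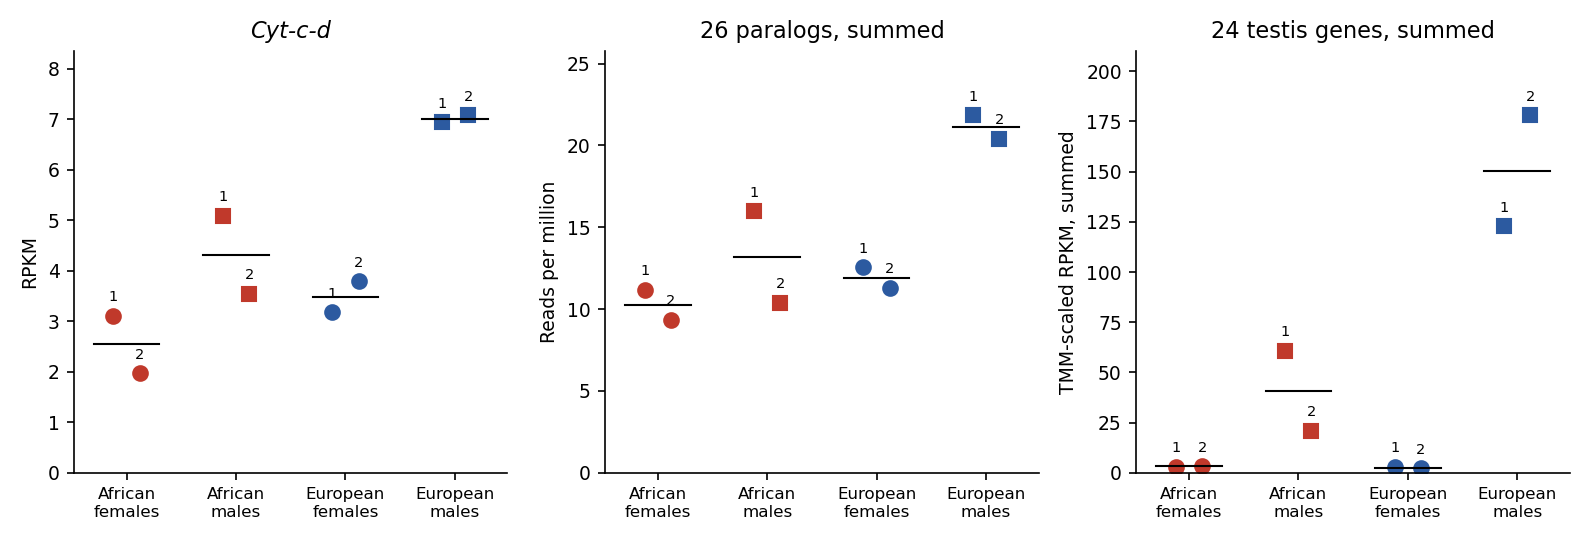
Deposited RPKM of Cyt-c-d (left), the summed RPM of the 26 paralogs (middle), and the summed TMM-scaled RPKM of 24 testis genes (right). Points are libraries numbered by replicate and lines are means of 2; testis genes sum to 2.27 to 3.28 in females and 20.9 to 178 in males, and European males are highest in all 3 panels.

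Testis genes were also higher in males. The summed TMM-scaled RPKM of 24 testis genes was 2.98 and 3.28 in females and 60.7 and 20.9 in males from Africa, against 2.89 and 2.27 in females and 123 and 178 in males from Europe, and 21 of the 24 were called higher in males. European males were highest and African male 2 lowest among the males for the testis sum, the paralog sum and Cyt-c-d. The paralog sum of African male 2 (10.4 RPM) lay within the female range (9.37 to 12.5), whereas its testis sum did not. Among females, European female 2 had the lowest testis sum but the highest Cyt-c-d. The part of testis RNA in the paralog difference was not tested. The count of paralogs higher in males was 10 without African male 2, 0 without European male 1, 2 without European male 2, and 5 without both African males.

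Among the paralogs not called for sex, COX4L had a log2 difference below 0 (-0.52, adjusted p = 0.090), with 40, 45, 42 and 63 reads in the females and 31, 20, 35 and 43 in the males. ND-51L1 was the other with a difference below 0 (-0.05). Differences above 0 that did not pass were those of COX6AL2, ND-B14.5AL, COX7AL, SdhAL, UQCR-14L, ATPsynGL, ATPsynepsilonL, ND-51L2, COX5BL, ND-49L, SdhBL, ATPsynbetaL, UQCR-6.4L, ATPsynCF6L, COX7CL, UQCR-11L and COX7AL2, from 0.05 to 1.29. These are means of log2 values over libraries. In summed reads, males did not exceed females for ATPsynCF6L (7 against 8), COX7CL (24 against 25) and UQCR-11L (70 against 70).

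Between the populations 1 paralog was called. ND-49L, a copy of the complex I core subunit ND-49, was at 0.0601 and 0.0441 RPKM in females and 0.258 and 0.0728 in males from Africa, against 0.723 and 0.673 in females and 0.730 and 0.885 in males from Europe. All European libraries were higher, with 115 reads against 17 in Africa and a log2 difference of 2.07 ± 0.26 (SE, adjusted p = 0.0033), called under all 16 alternatives. Its source gene ND-49 differed by 0.02 (adjusted p = 0.816). The count of paralogs higher in Europe was 2 without African female 1, European female 1 or European female 2.

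The sex difference was not found to depend on the population in any member. For the interaction of sex and population 0 of the 105 members tested were called by limma and 0 by voom, against 0.0556% of all genes (7 genes by limma, 1 by voom). With an unadjusted p under 0.05 there was 1 member, the paralog COX6AL2 (log2 difference of the sex differences, Europe over Africa, 1.60 ± 0.39 SE, unadjusted p = 0.0053, adjusted p = 0.368), against 956 of all genes.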

How the data were processed

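The 8 libraries were made from poly(A) RNA and read from a single end over 50 bases. Mapping by the authors used NextGenMap and FlyBase transcripts, with hits to all isoforms summed into the gene. The deposited RPKM refer to the longest transcript and to the library total over the listed genes, with no correction for composition. Every deposited RPKM value was a whole number of reads (100% of values, tolerance 0.01), and reads were worked back from it. Of 13942 genes, 13585 were named by gene ID, 336 by CG number and 21 not; the files use another genome release than the annotation at hand (BDGP6), so no coordinates or sequences are given, and mitochondrial gene order and strand are from BDGP6.

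Genes with at least 12 reads were tested. RPKM was divided by TMM factors (trims of 30% and 5%), log2(RPKM + 0.1) was taken, and limma 3.58.1 (trend, R 4.3.3) was run with sex and population together or also with their product, and adjusted by Benjamini-Hochberg at 5%. The log2 scale with 0.1 added understates changes of low genes. Tables were made with Python 3.11.15 and scipy 1.17.1. The fits were tested on simulated data. Alternatives were library size alone, scaling from nuclear genes, 1 in place of 0.1, minimums of 1 and 100 reads, voom, a replicate block, each library left out, and, chosen after seeing the data, both African males left out. Same-numbered replicates deviated together in all 6 pairs of groups (r = 0.137 to 0.468 over 9785 genes with at least 100 reads), although the labels do not say why. The main fits did not pair the libraries, and the replicate number entered only in the alternative with the replicate block. No libraries were duplicates (chi-square per gene between replicates 14.2 to 53.1).

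Named were all mitochondrial genes, called members, the highest and lowest nuclear subunit of each complex and all paralogs; genes of core subunits, those called only with the block and genes of related lists were named beside these after their values were seen. The members and gene lists were chosen with earlier results of these data known.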

Additional observations from a re-analysis of the deposited data

Results flagged for a closer look

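In groups of 4 libraries, the library farthest from the others was flagged where its gap to the nearest exceeded Dixon's limit. Chance flags about 1 in 20 groups, and 128 groups were checked, many of them of genes that move together. African female 1 was far above the other African libraries in its mitochondrial share (5.99% of reads) and in the RPKM of mt:ND1 (2377), mt:ND3 (2201), mt:Cyt-b (8851), mt:CoI (12108) and mt:CoII (6753), and above the other females in mt:ND2 (104). European female 1 was far above the other European libraries in mt:CoI (9272) and mt:CoIII (14531). African male 1 was far above the other African libraries in ND-49L (0.258 RPKM). European female 2 was the only female library with reads of COX6AL (0.137 RPKM) and COX6CL (0.0755 RPKM).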

How the results depend on the processing

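No named member changed direction where it was called. With library size alone, 25 members (24 nuclear) were higher and 5 (all mitochondrial) lower in Europe, and 7 members (all nuclear) were lower in males. A minimum of 100 reads left 1 member, a paralog, higher in males. Without both African males, a choice made after seeing the data, 2 members (1 nuclear) were higher and 1 (mitochondrial) lower in Europe, and 0 members (0 nuclear) were lower in males; the interaction cannot be fitted then. The first of these differs only in scaling, the second tests fewer genes and the third holds fewer libraries; beyond that the cause was not tested. Leaving out each library gave 0 to 10 members (all paralogs) higher in males, 1 to 3 lower (1 to 3 nuclear, 0 to 1 mitochondrial), 5 to 8 higher in Europe (4 to 6 nuclear, 1 to 2 paralogs) and 4 to 10 lower (all mitochondrial), and for the interaction 0. The difference between the populations in the mitochondrial share was then -1.03 to -0.626 percentage points (sexes -0.692 to -0.104), and in the nuclear share 0.112 to 0.206 (sexes -0.195 to -0.109). The replicate block gave 5 members higher and 4 lower in males, and 8 higher and 10 lower in Europe, and changed no other call than those given above. All listed mitochondrial genes code for proteins, so limiting the share to such genes changes nothing. Paralogs with few reads limit the depth of their comparison, since 1 read decides whether a library is at 0.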
